A study of Mus musculus with 12 samples.

Results

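The genes described here are a set of p53 targets in KY-1 and KY-2, a pair of mouse natural killer (NK) cell lines that lack p53 according to their labelled genotype (p53KO). The rule named 10 genes: Trp53 itself and the targets Cdkn1a, Mdm2, Ccng1, Sesn1, Sesn2, Btg2, Tnfrsf10b, Zmat3 and Eda2r. A gene was kept where the array annotation paired a probe set with its symbol alone, which held for 8 of the 10 genes, of 19938 genes on the arrays. Each of the 8 had 1 such probe set. No probe set was paired with Trp53 in the annotation used, so its level was not analysed here and the labelled genotype was not checked. The probe set of Cdkn1a was shared with 4930567H12Rik, and no value is given for it.

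Total RNA was hybridised to 12 arrays of 1 channel each. All cells carried the p53KO genotype and grew with 200 U/mL human IL-15, a cytokine that keeps NK cells alive. They were transduced with a GFP vector or with a GFP-P2A-FLAG-Myb vector, which adds Myb, a transcription factor of blood progenitors, and GFP-positive cells were sorted. There were 3 KY-1 GFP arrays, 4 KY-1 Myb arrays, 2 KY-2 GFP arrays and 3 KY-2 Myb arrays, and each line stands for 1 p53-deficient line, so a difference between KY-1 and KY-2 is one between 2 lines and not between genotypes. In KY-1, the GFP arrays numbered 1 and 2 lay far closer together than other arrays of a group, as did the Myb arrays numbered 3 and 4. Each such pair was averaged and counted as 1 sample, which left 2 GFP and 3 Myb replicates per line. The labels do not tie replicates to separate cultures, and the p-values below therefore cover the spread between these samples alone, part or all of which may be technical.

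The transcription factor p53 is held low in unstressed cells by the ubiquitin ligase Mdm2, whose own gene p53 activates, and it accumulates after DNA damage. It then binds a pair of short half-sites near its target genes and switches on programmes of growth arrest, DNA repair, metabolic restraint and cell death. Most of its targets have other activators as well, so their transcripts can be present in cells without p53. Loss of p53 is a common route to immortal lymphoid cell lines.

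Mouse promoters were searched for the letters of the p53 half-site, because these sequences show which of the genes carry such a motif close to their start. RefSeq promoters of GRCm38.p6 were found for 8 of the 10 genes, with 10 starts in all, and Tnfrsf10b and Zmat3 were not matched. In the 250 bases before the start, the p53 half-site (10 letters, which read the same on both strands) occurred at 5 of the 10 starts, those of Trp53, Cdkn1a, Mdm2, Ccng1 and Sesn1. It occurred in 7.13% of 32851 promoter windows of that length. The half-sites are in capitals, with up to 30 bases on each side.
Cdkn1a, chr17:29090876-29090967, plus strand: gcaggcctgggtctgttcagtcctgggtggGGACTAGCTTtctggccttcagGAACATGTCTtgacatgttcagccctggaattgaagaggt
Ccng1, chr11:40755432-40755501, minus strand: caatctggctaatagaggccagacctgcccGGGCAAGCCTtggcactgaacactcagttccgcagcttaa
Mdm2, chr10:117710905-117710974, minus strand: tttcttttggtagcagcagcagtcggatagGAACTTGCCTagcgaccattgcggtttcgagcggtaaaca
Sesn1, chr10:41887236-41887305, plus strand: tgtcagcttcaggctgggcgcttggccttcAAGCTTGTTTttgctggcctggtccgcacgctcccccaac
Trp53, chr11:69580254-69580323, plus strand: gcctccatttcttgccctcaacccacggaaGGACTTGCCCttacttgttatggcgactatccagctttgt
Cdkn1a was the only gene of the set with 2 half-sites at most 13 bases apart, at the more upstream of its 2 starts, an arrangement present in 0.0639% of all windows. A match is a description of letters and not a measured binding site.

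Btg2 had no half-site in this window. It carried the CRE half-site TGACG on both strands, in overlapping copies that lie at bases -166 to -159 from the start, shown in capitals because Btg2 had the largest difference with Myb of the set.
Btg2, chr1:134079284-134079351, minus strand: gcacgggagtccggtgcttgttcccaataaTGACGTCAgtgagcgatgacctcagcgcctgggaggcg
TGACG, searched on both strands, was in 17.8% of all windows and in those of Btg2 and Sesn1 here. The MYB core AACNG, on both strands, was in 9 of the 10 windows and in 74.2% of all windows, so its presence does not set these genes apart. Btg2 was the gene without it. The AP-1 letters TGANTCA, on both strands, were in 0 of the 10 windows and in 6.75% of all.

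Most tested markers of NK cells were high on these arrays. With GFP, 11 of 12 tested NK markers in KY-1 and 9 of 12 in KY-2 had a mean log2 level above 8, led by Nkg7, against 0 of 6 B cell and 0 of 8 myeloid markers in any group. The NK markers not above 8 with GFP were Eomes in KY-1 (4.86) and Ncr1 (5.43), Eomes (7.30) and Tbx21 (7.98) in KY-2. T cell markers stood at 0 of 9 above 8 in KY-1 and 2 of 9 in KY-2 with either vector, where Cd3g reached 12.30 and Cd8a 11.00 with GFP. Of 6 mast cell and basophil markers, 1 was above 8 with GFP in each line. This was Kit, also found on progenitors, at 10.39 in KY-1 and 8.07 in KY-2. The summed level of the T cell markers ran from 8.43 to 8.86 over KY-1 replicates and from 12.58 to 12.93 over KY-2 replicates, so these markers move with every difference between lines given below, and their part in it was not tested. They also moved with Myb. The summed T cell level went from 8.43 to 8.46 with GFP to 8.74 to 8.86 with Myb in KY-1, where Cd3g rose, and from 12.81 to 12.93 with GFP to 12.58 to 12.66 with Myb in KY-2, where Cd3d and Cd8a fell and Lat rose. The summed NK level in KY-2 was 14.55 to 14.62 with GFP and 14.35 to 14.39 with Myb, and 3 of 12 NK markers (Klrd1, Il2rb and Prf1) fell there. In KY-1 2 NK markers (Ncr1 and Klrb1c) fell and 1 (Gzma) rose, and 2 of 6 mast cell and basophil markers (Cpa3 and Mcpt8) rose. These genes are named because they are the marker calls with the Myb vector, at a limma adjusted p under 0.05. Among all genes 1.28% rose and 1.55% fell with Myb in KY-2, and 0.612% rose and 0.612% fell in KY-1. The part of these markers in the Myb differences below was not tested. Myb itself rose from 7.99 ± 0.07 (SD, n = 2) to 9.57 ± 0.02 (SD, n = 3) in KY-1 and from 5.05 ± 0.07 to 9.74 ± 0.07 in KY-2, in accord with the vector labels. In bulk RNA, fewer cells with a transcript and less of it per cell cannot be told apart.

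Levels are log2 values per probe set, on which 1 unit is a 2-fold difference, and they are compared between arrays for the same gene only. Of the 8 genes, 6 were above the array median of all genes on all 12 arrays (Mdm2, Ccng1, Sesn1, Sesn2, Btg2 and Zmat3). The death receptor genes Tnfrsf10b, at 4.03 to 4.88, and Eda2r, at 3.14 to 3.52, were below that median on all 12 arrays. The plot of values by array shows 5 genes whose group means spanned at least 0.5, and 3 (Tnfrsf10b, Zmat3 and Eda2r) whose means spanned less.

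**Figure D1:**
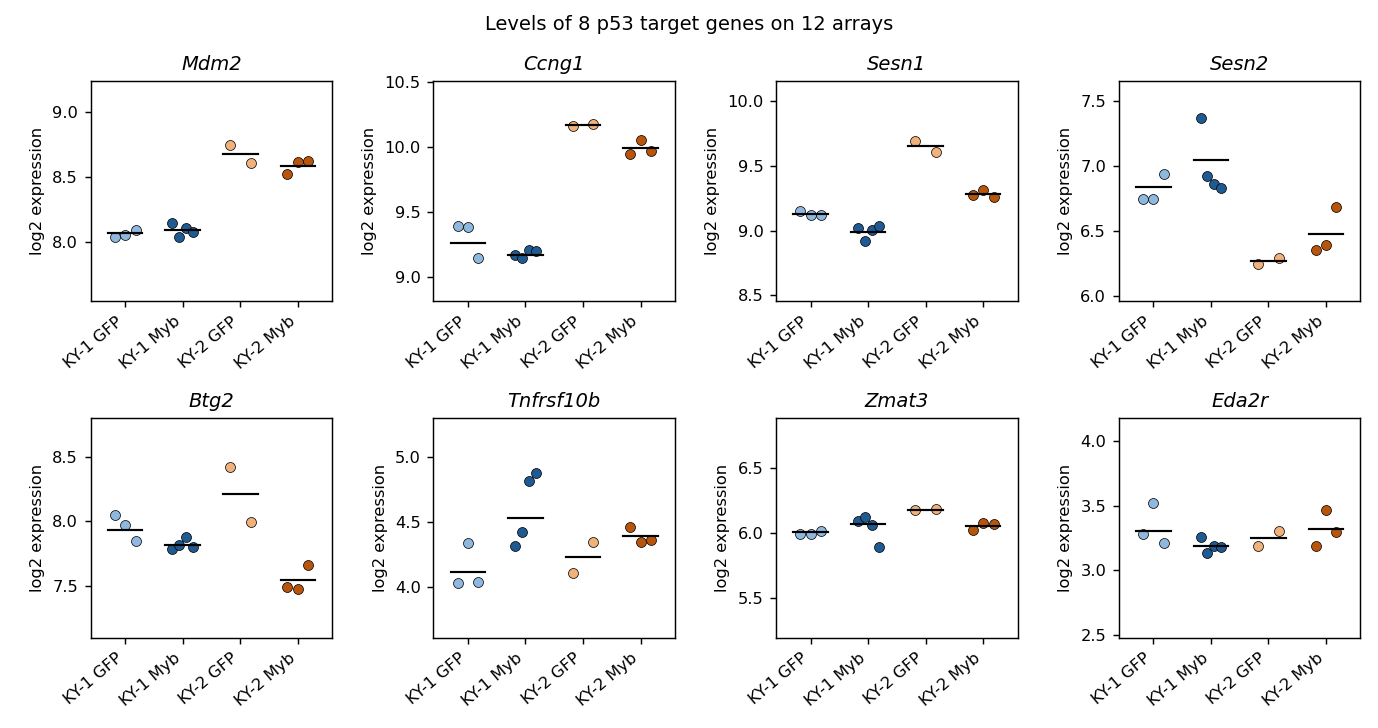
Log2 expression (vertical axis, the same span of values in each panel) of 8 p53 target genes on the arrays of 4 groups; points are arrays and lines are means over replicates. Mdm2, Ccng1 and Sesn1 were higher in KY-2 than in KY-1 on all arrays, Sesn2 was lower, and Btg2 and Sesn1 were lower with Myb in KY-2.

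The first question was whether raised Myb changed these genes in either line. In KY-2, Btg2 and Sesn1 fell with the Myb vector, by 1.58-fold and 1.29-fold, and 0 of the 8 genes rose. Among all 19938 genes, 1.55% fell and 1.28% rose in KY-2 at a limma adjusted p under 0.05. In KY-1 0 of the 8 genes rose and 0 fell, where 0.612% of all genes rose and 0.612% fell, and 1 gene (Tnfrsf10b) had an unadjusted p under 0.05, as did 11.0% of all genes in KY-1 and 13.2% in KY-2. The median log2 difference of the 8 genes was -0.035 in KY-1 and -0.109 in KY-2, against -0.001 and 0.011 for all genes.

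Btg2 encodes an antiproliferative protein that recruits the deadenylase complex to transcripts, and it is both a p53 target and an immediate early gene. In KY-2 it read 8.42 and 7.997 on the GFP arrays and 7.49, 7.48 and 7.66 on the Myb arrays. The groups did not overlap, but the GFP arrays differed from each other by more than the Myb arrays did. The log2 difference was -0.66 ± 0.12 (SE, limma adjusted p = 0.0126). It was -0.45 without KY-2 GFP replicate 1 (limma adjusted p = 0.153), so the call rests on that array, and it was also lost when KY-2 was fitted alone (limma adjusted p = 0.0689). The lower summed NK and T cell levels on the KY-2 Myb arrays move with this fall and with that of Sesn1.

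In KY-1 Btg2 read 8.05, 7.97 and 7.85 with GFP and 7.79, 7.82, 7.88 and 7.80 with Myb. These arrays overlapped, and the difference was -0.12 ± 0.12 (SE, limma adjusted p = 0.809), with a 95% interval from -0.38 to 0.15. The Myb effect on Btg2 in KY-2 minus that in KY-1 was -0.55 ± 0.17 (SE, limma unadjusted p = 0.00802). This did not pass the adjustment over all genes (limma adjusted p = 0.235), so the lines were not shown to differ in it.

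Sesn1, the sestrin 1 gene, encodes a stress protein that restrains the growth kinase mTORC1 and is activated by p53 and by FOXO factors. In KY-2 it read 9.69 and 9.61 with GFP and 9.28, 9.31 and 9.26 with Myb. All Myb arrays were below both GFP arrays, and the log2 difference was -0.37 ± 0.08 (SE, limma adjusted p = 0.0251). The call was lost on leaving out any of the 5 KY-2 replicates, with differences from -0.33 to -0.41 and limma adjusted p-values from 0.0609 to 0.271, and with KY-2 fitted alone (limma adjusted p = 0.0795).

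In KY-1 Sesn1 read 9.15, 9.12 and 9.12 with GFP and 9.02, 8.92, 9.01 and 9.03 with Myb. It was the only gene of the 8 whose KY-1 arrays did not overlap, as was the case for 19.0% of all genes, and the difference of -0.14 ± 0.08 (SE) did not pass (limma adjusted p = 0.544). In KY-2 the arrays did not overlap for 5 of the 8 genes, against 31.0% of all genes. Besides Btg2 and Sesn1 these were Ccng1, Sesn2 and Zmat3, none of which passed the test.

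Sesn2 encodes sestrin 2, which senses leucine and is also induced through ATF4, the factor of the amino acid stress response. Its KY-1 arrays read 6.74, 6.75 and 6.94 with GFP and 7.37, 6.92, 6.86 and 6.83 with Myb. The first Myb array stood above the others, and the groups overlapped. In KY-2 it read 6.24 and 6.29 with GFP and 6.35, 6.39 and 6.69 with Myb. Myb minus GFP came to 0.21 ± 0.15 in KY-1 and 0.21 ± 0.15 in KY-2 (SE, limma adjusted p = 0.703 and 0.66), with intervals from -0.13 to 0.55 in each line.

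Mdm2, the ligase that degrades p53, differed by 0.02 ± 0.08 in KY-1 and by -0.09 ± 0.08 in KY-2. Its 95% intervals ran from -0.16 to 0.20 and from -0.27 to 0.09. Ccng1, which encodes cyclin G1, a partner of the phosphatase PP2A in the control of Mdm2, differed by -0.09 ± 0.09 and -0.18 ± 0.09. Its KY-2 interval ran from -0.37 to 0.01. Limma adjusted p-values of Mdm2 and Ccng1 lay between 0.43 and 0.957.

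Tnfrsf10b, the receptor for the death ligand TRAIL, read 4.03, 4.34 and 4.04 in KY-1 with GFP and 4.32, 4.43, 4.82 and 4.88 with Myb. The highest pair were the Myb arrays counted as 1 replicate, and the difference was 0.42 ± 0.14 (SE, limma adjusted p = 0.291). In KY-2 it was 0.16 ± 0.14. Eda2r, the receptor for ectodysplasin A2, differed by -0.12 ± 0.10 in KY-1 and 0.07 ± 0.10 in KY-2. Zmat3, a zinc finger RNA-binding protein that controls splicing, differed by 0.06 ± 0.08 and -0.13 ± 0.08. The interval of Zmat3 in KY-2 ran from -0.29 to 0.04, which leaves room for a fall smaller than that of Btg2. The direction of the Myb difference was the same in both lines for 5 of the 8 genes, and 0 of the 8 passed the test of the difference between lines, which 0.843% of all genes passed (1 of the 8, Btg2, had an unadjusted p under 0.05, as did 10.3% of all genes).

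**Figure D2:**
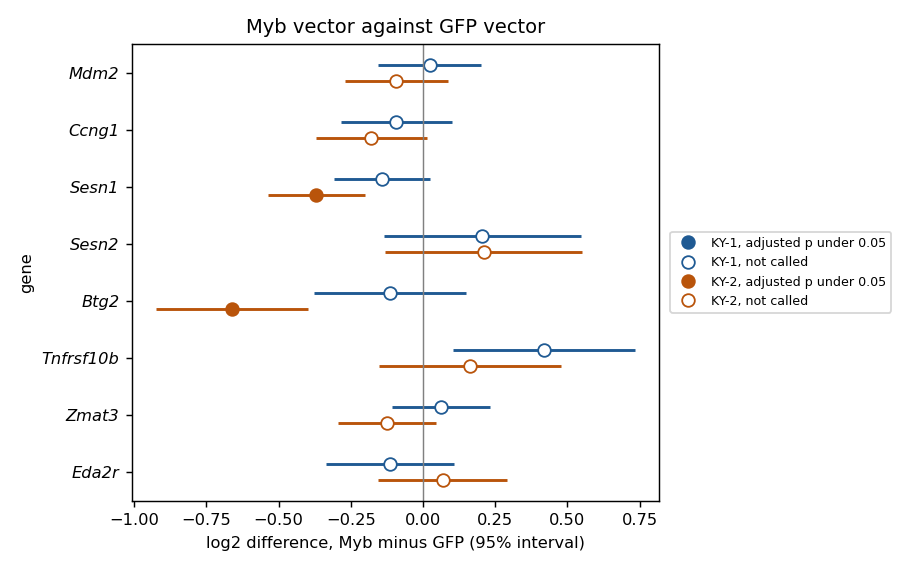
Log2 difference between Myb and GFP arrays (horizontal axis) for each gene in KY-1 and KY-2; points are limma estimates, lines are 95% intervals and filled points have an adjusted p under 0.05. Btg2 at -0.66 and Sesn1 at -0.37 in KY-2 are the filled points.

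The second question was how the lines differ in these genes at the same vector. With GFP, Ccng1, Mdm2 and Sesn1 were higher in KY-2 than in KY-1 and Sesn2 was lower. With Myb the same 4 genes were called in the same directions. With GFP 13.6% of all genes were higher and 15.2% lower in KY-2, and with Myb 14.7% and 16.9%, so a call between the lines is common on these arrays. Median centring turned the split with Myb from 2935 higher and 3370 lower genes into 2329 and 4084. The comparisons share samples with those of Myb against GFP and are not independent of them.

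Ccng1 had the largest difference. It read 9.39, 9.38 and 9.14 in KY-1 GFP and 10.16 and 10.18 in KY-2 GFP. It read 9.17, 9.14, 9.20 and 9.19 in KY-1 Myb and 9.95, 10.06 and 9.97 in KY-2 Myb. The arrays of the lines did not overlap with either vector, and KY-2 was higher by 0.91 ± 0.10 log2 with GFP (SE, 1.88-fold, limma adjusted p = 2.93e-05) and by 0.82 ± 0.08 with Myb (limma adjusted p = 1.06e-05).

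Mdm2 read 8.03, 8.05 and 8.09 in KY-1 GFP and 8.75 and 8.61 in KY-2 GFP. With Myb it read 8.15, 8.03, 8.10 and 8.08 in KY-1 and 8.52, 8.61 and 8.62 in KY-2. All KY-2 arrays stood above all KY-1 arrays, by 0.61 ± 0.09 with GFP (SE, 1.53-fold, limma adjusted p = 0.000331) and 0.49 ± 0.07 with Myb (limma adjusted p = 0.00029).

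The sestrin genes moved in opposite directions between the lines. In KY-2 Sesn1 stood 0.52 ± 0.08 above KY-1 with GFP (SE, 1.44-fold, limma adjusted p = 0.000604) and 0.30 ± 0.07 with Myb (limma adjusted p = 0.00568). Median centring of the arrays brought the latter to 0.24 (limma adjusted p = 0.0513). Sesn2 was lower in KY-2, at -0.57 ± 0.17 with GFP (SE, 1.49-fold, limma adjusted p = 0.025) and -0.57 ± 0.14 with Myb (limma adjusted p = 0.00793). With GFP the Sesn2 call was lost without KY-1 GFP replicate 3 (-0.48, limma adjusted p = 0.141), KY-2 GFP replicate 1 (-0.55, 0.11) or KY-2 GFP replicate 2 (-0.60, 0.0796). Both sestrin genes had arrays that did not overlap between the lines with either vector.

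Btg2 stood at 0.28 ± 0.13 in KY-2 relative to KY-1 with GFP and at -0.27 ± 0.11 with Myb (SE, limma adjusted p = 0.147 and 0.0809). The order of its group means was KY-2 GFP at 8.21, KY-1 GFP at 7.93, KY-1 Myb at 7.82 and KY-2 Myb at 7.55, and 0 of the 3 neighbouring pairs in that order were called different. Without KY-2 GFP replicate 2 the difference between the lines with GFP was 0.49 (limma adjusted p = 0.0172). With Myb, 7 of 18 alternative settings called the lower level in KY-2. Zmat3 was at 0.18 ± 0.08 with GFP and -0.01 ± 0.07 with Myb, and it passed with GFP only where genes with a mean under 6 were left out (limma adjusted p = 0.0498). Tnfrsf10b and Eda2r lay between -0.14 and 0.12 in both comparisons, with intervals from -0.42 to 0.46. With GFP the arrays of the lines did not overlap for 5 of the 8 genes, against 57.4% of all genes, and with Myb for 5 of the 8, against 39.9%.

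**Figure D3:**
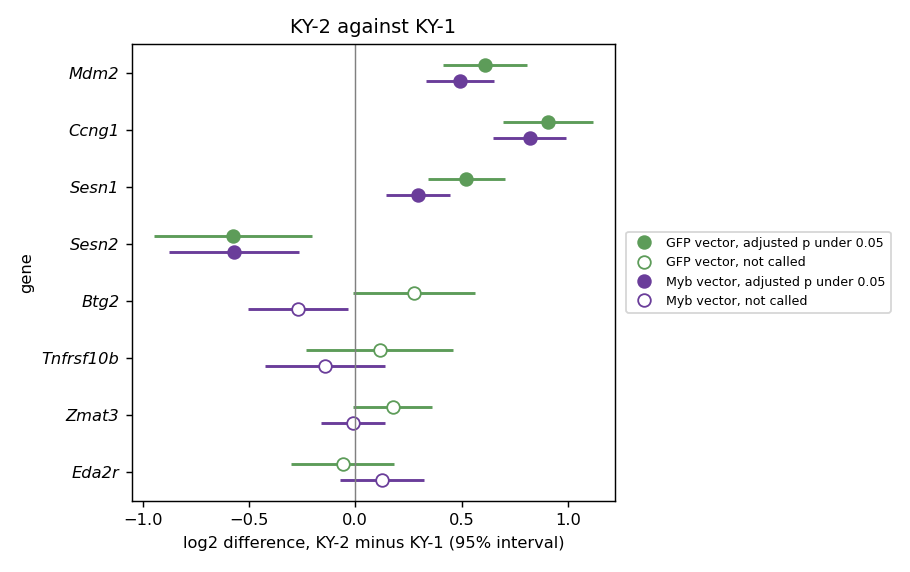
Log2 difference between KY-2 and KY-1 arrays (horizontal axis) with the GFP or the Myb vector; points are limma estimates, lines are 95% intervals and filled points have an adjusted p under 0.05. Mdm2, Ccng1 and Sesn1 lie to the right of 0 and Sesn2 to the left with both vectors.

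The genes whose values over the 10 replicates were most like those of each gene were found by Pearson correlation among 6587 genes with a mean of at least 7. For Ccng1 these were Id2, Eid1 and Cog5, with r between 0.995 and 0.996. For Mdm2 they were Ecpas, Prpsap2 and Cs (0.993 to 0.994), for Sesn1 Htra1, Hpcal1 and Zcchc18 (0.984 to 0.989), for Sesn2 Ptch1, Khsrp and Uck2 (0.967 to 0.969), and for Btg2 Rab22a, Rhof and Sp4 (0.924 to 0.942). The 10 points come from only 2 lines and 2 vectors, and the measure describes these replicates only.

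Other p53 targets were taken from a list of growth arrest and repair genes and a list of apoptosis genes. These lists, and those of regulators and relatives below, were chosen with earlier results of these data known. Their counts describe these data and are not a test. Together with the 8 genes they made 49 tested targets. In KY-1 0 of the 49 rose and 0 fell with Myb. In KY-2 2 rose and 3 fell, beside 1.28% and 1.55% of all genes, and the median was -0.031, beside 0.011 for all genes. The 2 that rose were Xpc, which encodes a sensor of DNA damage, by 0.40 ± 0.09 (SE, limma adjusted p = 0.035), beside 0.37 ± 0.09 in KY-1 (limma adjusted p = 0.0858), and Ddb2, a subunit of the ultraviolet damage receptor, by 0.34 ± 0.08 (limma adjusted p = 0.0396), beside -0.14 ± 0.08 in KY-1 (limma adjusted p = 0.569). Ercc5, a repair nuclease gene of the same list, differed by -0.26 ± 0.07 in KY-1 and -0.001 ± 0.07 in KY-2 (limma adjusted p = 0.15 and 0.996). Sfn, which encodes the checkpoint protein 14-3-3 sigma, fell by 0.51 ± 0.10 (limma adjusted p = 0.0176). The calls of Xpc, Ddb2 and Sfn were lost in 9, 13 and 6 of 18 alternative settings. At a limma unadjusted p under 0.05 there were 7 of 24 tested growth arrest and repair targets in KY-2 and 3 in KY-1, beside 13.2% and 11.0% of all genes.

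Of the 17 tested apoptosis targets 0 rose and 0 fell with Myb in either line, with 3 in KY-1 and 1 in KY-2 at an unadjusted p under 0.05, beside 11.0% and 13.2% of all genes. They include Bbc3, the gene of the death effector PUMA, which lay between 5.20 and 5.36 as a group mean. These means were below the array medians of all genes, so a change in Bbc3 could be missed. Between the lines, 4 of the 17 were higher in KY-2 and 1 lower with GFP, and 4 higher and 2 lower with Myb. The shares over all genes were 13.6% higher and 15.2% lower with GFP, and 14.7% and 16.9% with Myb. Pmaip1, the gene of the death effector NOXA, was higher in KY-2 by 1.68 ± 0.19 with GFP and 2.27 ± 0.15 with Myb. Fas, the death receptor gene, was higher by 1.47 ± 0.18 and 0.73 ± 0.15. Steap3, a metalloreductase gene, was higher by 1.10 ± 0.11 and 0.87 ± 0.09. Bik, which encodes another death effector of the Bcl2 family, was lower, at -2.34 ± 0.20 and -2.50 ± 0.16 (SE; limma adjusted p of these 4 genes at most 0.00314). The medians of all genes on the arrays ran from 5.498 to 5.648, and Pmaip1 in KY-1 (5.21 with GFP), Fas in all 4 groups (3.55 to 5.02) and Bik in KY-2 (5.29 with GFP) lay below them, so the sizes of these differences rest on dim probe sets.

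Among the 24 tested growth arrest and repair targets, 4 were higher and 6 lower in KY-2 with GFP, and 3 higher and 6 lower with Myb. Pltp, the phospholipid transfer protein gene, was at 10.47 ± 0.02 in KY-1 GFP and at 7.73 ± 0.11 in KY-2 GFP (SD, n = 2 each), a 6.68-fold difference (limma adjusted p = 1.02e-08). Dcxr, a carbonyl reductase gene, was higher in KY-2 by 1.34 ± 0.10 with GFP and 1.198 ± 0.09 with Myb. Cgrrf1 was lower, at -0.53 ± 0.10 and -0.61 ± 0.08. Counted over all 49 targets, 11 were higher and 8 lower in KY-2 with GFP, and 10 and 9 with Myb. Of all genes 13.6% were higher and 15.2% lower with GFP, and 14.7% and 16.9% with Myb. The counts of lower targets were near these shares and those of higher targets above them. Calls were commoner among brighter genes. With GFP 5757 of all genes were called, and 5178 where only genes with a mean of at least 6 were tested. Of all genes 56.4% were dimmer than Zmat3, at a mean of 6.06. No share matched for level was computed, so an excess of higher targets was not tested.

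The regulators and relatives of p53 showed 1 change with Myb among 22 tested genes, in KY-2, where 1.28% of all genes rose and 1.55% fell. Ppp1r13b, which encodes ASPP1, a p53-binding protein, fell by 0.56 ± 0.10 in KY-2 (SE, limma adjusted p = 0.00978). The call was lost without KY-2 GFP replicate 1 (-0.50, limma adjusted p = 0.14) or replicate 2 (-0.61, limma adjusted p = 0.0502). The p53 relatives Trp63 and Trp73 lay at 4.71 to 4.77 and 5.14 to 5.34 as group means, below the array medians of all genes. Mdm4, the partner of Mdm2, lay at 8.58 to 8.77 with 0 of the 5 comparisons called. Between the lines 5 of the 22 were higher and 6 lower in KY-2 with GFP, and 6 and 6 with Myb. The shares over all genes were 13.6% higher and 15.2% lower with GFP, and 14.7% and 16.9% with Myb. Hipk2, a kinase that phosphorylates p53, was lower in KY-2, at -2.53 ± 0.17 with GFP and -2.64 ± 0.14 with Myb. Usp7, a protease that removes ubiquitin from Mdm2 and p53, was higher by 0.88 ± 0.11 and 1.05 ± 0.09, Prkdc, the DNA-dependent protein kinase gene, by 0.88 ± 0.10 and 1.04 ± 0.08, and Crebbp, an acetyltransferase gene, by 0.45 ± 0.09 and 0.64 ± 0.07 (SE; limma adjusted p of these 4 genes at most 0.00301). The KY-2 GFP level of Hipk2, 5.22, lay below the array medians.

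Of 19 tested family relatives of the set, 1 fell with Myb in both lines, where 0.612% of all genes fell in KY-1 and 1.55% in KY-2. This was Zmat4, at -0.50 ± 0.09 in KY-1 and -0.65 ± 0.09 in KY-2 (SE, limma adjusted p = 0.0188 and 0.0016), where the KY-1 call was lost in 5 of 18 alternative settings. Sesn3 was at 7.70 in KY-1 GFP and 8.47 in KY-2 GFP, the direction of Sesn1. Btg1 was at 8.35 and 7.99, and Ccng2 at 7.35 and 6.98, both lower in KY-2 where Ccng1 was higher. Tnfrsf26, a mouse relative of the TRAIL receptor, was higher in KY-2 by 1.94 ± 0.10 with GFP and 2.07 ± 0.08 with Myb. Zmat5 was higher by 1.19 ± 0.10 and 1.17 ± 0.08, and Tob2, an antiproliferative relative of Btg2, was lower, at -0.80 ± 0.09 and -0.96 ± 0.08 (SE; limma adjusted p of these 3 genes at most 6.3e-05).

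Lists that share an activator with a gene of the set were read beside it. They too were chosen with earlier results of these data known. Their counts beside the shares of all genes are therefore a description and not a test. Of 24 immediate early genes, the kind to which Btg2 also belongs, 0 rose and 4 fell with Myb in KY-2, and 0 rose and 0 fell in KY-1. Among all genes 1.28% rose and 1.55% fell in KY-2, and 0.612% rose and 0.612% fell in KY-1. At a limma unadjusted p under 0.05 there were 10 of the 24 in KY-2 and 3 in KY-1, beside 13.2% and 11.0% of all genes. The genes that fell were Egr2, at -1.13 ± 0.15, Egr1, at -0.83 ± 0.10, Jun, at -0.82 ± 0.11, and Nr4a2, at -0.76 ± 0.10, all transcription factors (SE; limma adjusted p at most 0.00241). The call of Jun was lost without KY-2 GFP replicate 1 (-0.70, limma adjusted p = 0.0546). The median was -0.148 in KY-2 and -0.008 in KY-1, beside 0.011 and -0.001 for all genes. Of 20 genes of the ATF4 stress response, which also induces Sesn2, 3 rose and 0 fell with Myb in KY-2. In KY-1 0 rose and 0 fell. The shares over all genes are those given above for the immediate early genes. At a limma unadjusted p under 0.05 there were 8 of the 20 in KY-2 and 3 in KY-1, beside 13.2% and 11.0% of all genes. The medians were 0.129 in KY-2 and -0.036 in KY-1. Nupr1 rose by 0.72 ± 0.09, Slc7a5, an amino acid transporter gene, by 0.49 ± 0.11 and Asns, the asparagine synthetase gene, by 0.41 ± 0.08 (SE; limma adjusted p at most 0.0391). The calls of Asns and Slc7a5 were lost in 6 and 10 of 18 alternative settings.

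Of 17 tested FOXO targets, a class that includes Sesn1, 2 rose and 1 fell with Myb in KY-2. In KY-1 0 rose and 0 fell. Among all genes 1.28% rose and 1.55% fell in KY-2, and 0.612% rose and 0.612% fell in KY-1. At a limma unadjusted p under 0.05 there were 7 of the 17 in KY-2 and 4 in KY-1, beside 13.2% and 11.0% of all genes. The medians were -0.056 and 0.047, beside 0.011 and -0.001 for all genes. Cited2, a transcriptional coregulator gene, rose by 0.60 ± 0.09 and Bnip3, a mitophagy receptor gene, by 0.83 ± 0.15, while Irs2, an insulin signalling adaptor gene, fell by 0.47 ± 0.11 (SE; limma adjusted p at most 0.0441). The Irs2 call was lost in 11 of 18 alternative settings, with a limma adjusted p of up to 0.371. Cited2 was lost without KY-2 GFP replicate 1 (limma adjusted p = 0.0608) and Bnip3 without KY-2 GFP replicate 2 (0.122). In the plot of all listed genes both the immediate early and the ATF4 list straddle 0 in KY-2, with 7 of 24 and 17 of 20 genes above it, beside 10573 of all 19938 genes.

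**Figure D4:**
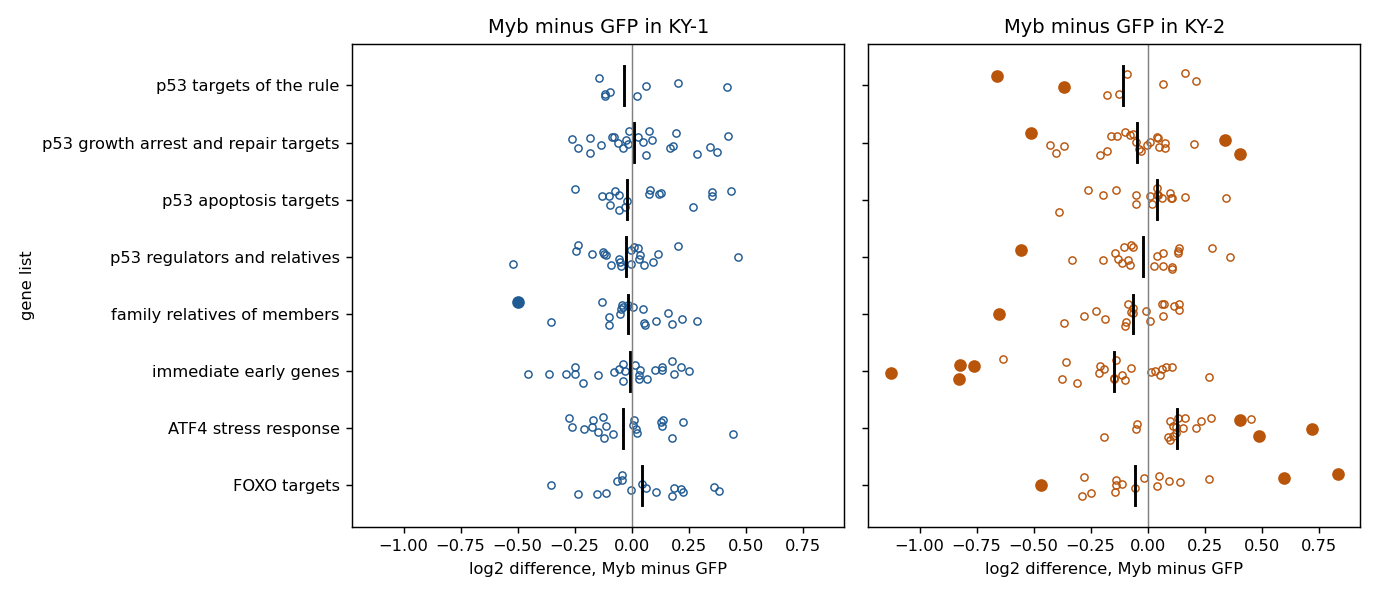
Log2 difference between Myb and GFP arrays (horizontal axis) for every tested gene of 8 lists in KY-1 (left panel) and KY-2 (right panel); vertical scatter within a list has no meaning, filled points have a limma adjusted p under 0.05 and black bars are list medians. In KY-1 Zmat4 is the only filled point, and in KY-2 the immediate early genes have a median of -0.148 and the ATF4 genes one of 0.129.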

How the data were processed

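Each deposited value is a log2 signal for a probe set. The submitters' processing notes name Partek and RMA, with no version or option given. RMA normalizes between arrays and can shrink differences at low signal, and the table carries no detection calls. The number of arrays limits the precision. Of 35556 probe sets, 21789 were paired with 1 symbol and 1621 with several in the annotation used, and 12146 with none. The probe set with the highest mean stood for each gene, which gave 19938 genes, all tested. Pairs of arrays of a group were averaged where the robust SD of their differences was under 0.5 times that of any other pair (0.0434 and 0.0469, against 0.102 to 0.172). Limma 3.58.1 in R 4.3.3 fitted 4 group means with eBayes (6 residual and 4.89 prior degrees of freedom), and p-values were adjusted over all 19938 genes by the Benjamini-Hochberg method, at a threshold of 0.05. On simulated data for Myb against GFP in KY-2, 96.5% of 200 genes changed by 1 log2 among 19938 were called, with 10 false calls. The Myb differences of the set in KY-2 were smaller than 1 log2, the largest being -0.66 (Btg2). The share of such smaller changes that would be called was not simulated, so an uncalled gene of the set may still have changed. Alternatives were 12 separate arrays without and with a replicate block, trended moderation, a further quantile normalization, median centring, a filter at a mean of 6, averaging over all probe sets of a gene, fits of the compared groups alone, and leaving out each replicate.

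The genes of the set and the lists were chosen with earlier results of these data known. Named genes were the set, up to 4 genes per list with the smallest p among calls with Myb and up to 4 among calls between lines, and the 3 genes most like each gene whose group means spanned at least 0.5. Bbc3, Trp63, Trp73, Mdm4, Sesn3, Btg1 and Ccng2 are given as levels of pathway genes and relatives.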

Additional observations from a re-analysis of the deposited data

Results flagged for a closer look

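The effect of Myb differed between the lines for 2 of the named genes, by limma's test of the difference, which 0.843% of all genes passed. The named genes outside the set were picked from calls in these same data, so their count cannot be set against that share. Egr1 fell in KY-2, from 6.91 to 6.09, and went from 5.31 to 5.52 in KY-1, a difference of -1.04 ± 0.15 (SE, limma adjusted p = 0.00591). Its KY-1 GFP level lay below the array medians of all genes (5.498 to 5.648), so a fall in KY-1 could be missed. Nupr1 rose in KY-2, from 7.48 to 8.20, and went from 9.53 to 9.32 in KY-1, a difference of 0.93 ± 0.12 (SE, limma adjusted p = 0.00348).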

How the results depend on the processing

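Of 10 called differences among the 8 genes, 6 passed in all 18 alternatives run and 0 changed sign in any; those lost in some were Btg2 and Sesn1 with Myb in KY-2, Sesn1 between the lines with Myb and Sesn2 between the lines with GFP. Of 30 differences not called, 3 passed in at least 1 alternative and 9 changed sign in at least 1, and all of these 9 were uncalled there too. The count of genes called with Myb in KY-2, 2 of 8, was 0 with only the groups compared and ran from 0 to 2 on leaving out 1 replicate. Replicate numbers were not shown to pair the samples: correlations of deviations from group means ran from -0.465 to 0.278 for arrays with the same number and from -0.454 to 0.426 for others. With the replicate block on all 12 arrays 2 of the 8 genes were called with Myb in KY-2 (Btg2 at -0.67, Sesn1 at -0.37), 0 in KY-1 and 4 in each comparison of the lines. Over all genes, 244 were called with Myb in KY-1, 565 in KY-2 and 168 for the difference between them. These counts moved by over 1.5 times to 823 and, for the difference, 427 with 12 separate arrays, to 484, 888 and 362 with trended moderation, in KY-1 to 442 and for the difference to 288 with the filter at a mean of 6, and to 106 and 346 with only the groups compared. On leaving out 1 replicate such counts ran from 72 to 142 in KY-1, from 182 to 367 in KY-2 and from 88 to 109 for the difference. The filter at a mean of 6 leaves Tnfrsf10b and Eda2r out, and for the difference between lines no fit of only the groups compared was made, since it uses all 4.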
